A study of Homo sapiens with 12 samples.

Results

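The genes described here are very long genes with reads in CCRF-CEM cells: autosomal genes of at least 500 kb, introns included, with at least 50 exonic reads in each of 12 RNA-seq libraries. Length and reads are those of the deposited gene tables. Length is thus the span of the annotated gene model, and whether the cells transcribe all of it was not tested. Of 331 autosomal features that reach 500 kb, 101 had enough reads and are the members. The tables hold 44147 features in all, and 14267 autosomal ones of any length had at least 50 exonic reads in every library. The floor on reads treats all groups alike, so a long gene that falls under it in 1 library is not among the 101.

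CCRF-CEM is an established human T lymphoblast leukemia line. Parent cells, of wild-type genotype, and cells of the same line with SLFN11 knocked out received DMSO or, at 100 nM and for 6 h, prexasertib, which inhibits the kinase CHK1 of the replication checkpoint. Total RNA was sequenced from 3 libraries in each of 4 groups: parent cells labelled DMSO, parent cells labelled prexasertib, knockout cells labelled DMSO and knockout cells labelled prexasertib. All groups share the RPMI1640 medium with 10% FBS, and the labels do not say whether the knockout line is 1 clone, how the gene was edited, or whether a group's 3 libraries stem from cultures of their own. The p-values therefore measure the spread between these libraries, which may be technical.

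The treatment labels are in doubt. All 12 records carry in their title a library name that belongs to the file of a record with the opposite treatment, within the same cell line. Groups here follow the record that each file is attached to, and "labelled" refers to that record. If the library names hold instead, every difference between treatments changes sign, so does the difference between the lines' responses, and the knockout to parent comparisons with the DMSO and with the prexasertib label trade places.

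Libraries held 47887791 to 77548202 exonic reads. The targeted gene, SLFN11, was measured at 100.4, 91.2 and 95.2 CPM (exonic reads scaled to a common library size with edgeR's TMM factors) in parent cells labelled DMSO and at 65.9, 66.6 and 69.1 CPM in knockout cells labelled DMSO. Its exonic reads were thus lower in the knockout line by less than 2-fold. Its intronic reads went the other way, at 62.3, 62.2 and 56.9 CPM in parent and 79.2, 77.4 and 77.4 CPM in knockout cells labelled DMSO, and were called higher in the knockout line with the DMSO label (0.37 ± 0.07 (SE), adjusted p = 0.00041) and the prexasertib label (0.61 ± 0.07 (SE), adjusted p = 1.2e-06). Reads over the whole gene cannot show whether the edited part is intact. The 15 T lymphoblast markers summed to 2378 to 3133 CPM and all had a mean of at least 1 CPM in each group, while the 12 B-cell and myeloid markers listed in the files, of 14 sought and with MS4A1 and FCGR3A at 0 in every group, summed to 26.9 to 36.2 CPM in parent and 42.1 to 44.8 CPM in knockout libraries. The 12 listed of 14 epithelial, fibroblast and erythroid markers, with HBB and COL1A2 at 0 in 3 of the 4 groups, summed to 3.26 to 4.81 CPM in parent and 11.8 to 13.3 CPM in knockout libraries. The part of these marker differences in the line comparisons was not tested. One library stood apart. Replicate 1 of the parent cells labelled prexasertib had 30.3% of its gene reads in introns, against 23.9 to 26.4% in the other 11 libraries. Some of the results that rest on it are also given without it.

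RNA polymerase II copies a gene from promoter to end in a single pass, and the spliceosome removes introns while the polymerase is still moving. In a very long gene almost all of that path is intron, so intronic reads come mainly from RNA that is being made or has just been made, and exonic reads mainly from finished mRNA. Many genes of this length encode adhesion, synaptic, cytoskeletal and signaling proteins, and some lie over common fragile sites, which replicate late and break when replication is slowed. CHK1 limits the firing of replication origins and protects stalled forks, and SLFN11 is recruited to stressed forks and blocks their progress.

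The 101 genes had a median length of 653.8 kb. The 5 longest were PTPRD (chr9:8314246-10612723 in hg19, 2298.5 kb), EYS (1987.2 kb), PDE4D (1553.1 kb), DAB1 (1552.0 kb) and TBC1D5 (1287.7 kb), and 11 genes reached 1 Mb. Exons made up a median of 1.24% of their length. Of 98 that matched a RefSeq gene, 95 were protein coding and 3 were long noncoding RNAs. Members lay on 21 autosomes as the files name them. At the length edge, DST (496.6 kb), MBD5 (497.2 kb) and DIAPH3 (498.4 kb) fell just outside, and KCNAB1 (501.1 kb), AKAP6 (502.1 kb) and CPQ (504.4 kb) just inside. At the read edge, ATRNL1, with 32 reads in its lowest library, fell outside, and KCNMB2, with 52, fell inside. Of the 230 long genes below the floor, 207 stayed under 50 exonic reads in every library and 23 reached 50 in at least 1, among them 8 that reached it in all 3 libraries of some group.

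Levels per kb of exon, the scale on which genes can be compared, ran from 0.0861 CPM per kb for EYS to 79.2 CPM per kb for ALDH1A2, which encodes a retinaldehyde dehydrogenase of retinoic acid synthesis, with a median of 1.71. FAF1 came next at 17.9 CPM per kb. Introns held a median of 70.7% of a member's reads, from 17.4 to 97.6%, and over 50% of the reads in 88 of the 101. The same median rose with length over all expressed autosomal genes, from 9.92% under 20 kb to 26.9, 34.6, 41.4 and 55.0% in the classes between. Some of the gene models share ground with other genes: in 14 members, among them EYS, SOX6, RORA, FRMD4A, AVL9 and IQCJ-SCHIP1, under 50% of exonic reads lay outside every other gene, while in 83 at least 80% did. No strand setting was given in the sources used here, so reads of a member and of a gene on the other strand cannot be told apart.

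Promoter sequences are shown for 3 members on which the results turn: PDE4D and PRKCE, the members whose exonic reads were lower with the prexasertib label in both lines, and TBC1D5, among the largest intronic rises in both. They are RefSeq windows of GRCh38.p14, 250 bases before to 50 bases after the annotated start, printed 5′ to 3′ on the gene's strand. Capitals mark a match to the AP-1 motif TGANTCA, which JUN and FOS dimers bind.
PDE4D (chr5:60496237-60496536, minus strand): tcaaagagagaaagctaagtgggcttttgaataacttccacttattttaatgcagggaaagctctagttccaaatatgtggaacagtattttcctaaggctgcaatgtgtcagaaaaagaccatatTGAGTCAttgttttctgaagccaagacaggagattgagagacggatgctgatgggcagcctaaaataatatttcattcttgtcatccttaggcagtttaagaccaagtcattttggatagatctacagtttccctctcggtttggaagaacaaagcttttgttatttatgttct
PRKCE (chr2:45651425-45651724, plus strand): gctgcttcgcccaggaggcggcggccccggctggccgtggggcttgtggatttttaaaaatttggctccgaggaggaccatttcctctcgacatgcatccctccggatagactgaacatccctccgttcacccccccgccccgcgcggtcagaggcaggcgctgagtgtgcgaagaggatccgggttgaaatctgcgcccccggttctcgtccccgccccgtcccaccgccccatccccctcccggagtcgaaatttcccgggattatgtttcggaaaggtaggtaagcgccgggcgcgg
TBC1D5 (chr3:17740858-17741157, minus strand): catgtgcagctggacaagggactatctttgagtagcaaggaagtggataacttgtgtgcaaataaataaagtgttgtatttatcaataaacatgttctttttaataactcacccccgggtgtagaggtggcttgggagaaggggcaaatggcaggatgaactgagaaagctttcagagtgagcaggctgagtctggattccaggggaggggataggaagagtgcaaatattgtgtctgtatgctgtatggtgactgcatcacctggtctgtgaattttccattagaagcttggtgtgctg
Of these only the PDE4D window held the motif. Among 87 member promoters in the table, 4 held TGANTCA on either strand, those of DAB1, PDE4D, SOX6 and ZBTB20, which is 4.60% against 7.76% of all 27305 windows of this length. The cyclic AMP response element TGACGTCA was in 1 member promoter, that of LPP, or 1.15% against 1.98%, and CCAAT in 29, or 33.3% against 35.7%. Member promoters had a median GC content of 66.0% against 58.3% for all. A match is a run of letters in a window around 1 annotated start, and a long gene can have several starts. The windows were not matched to the starts of the hg19 gene models whose lengths and reads are given. By its coordinates, which are of another build, the TBC1D5 window lies inside its model, not at the end where a minus-strand model starts. Its sequence is therefore not shown to be the start of that model. Nor are those of PDE4D and PRKCE, whose windows were not placed against their models.

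Very long genes took a larger share of the reads of libraries labelled prexasertib. Of all intronic reads in a library, the 101 genes held 1.77, 1.56 and 1.56% in the parent cells labelled DMSO and 2.37, 1.96 and 1.92% in the parent cells labelled prexasertib. In knockout cells the share was 1.94, 1.99 and 1.87% with the DMSO label and 2.19, 2.12 and 2.15% with the prexasertib label. In each line every library labelled prexasertib was above every library labelled DMSO, and the parent DMSO libraries were the lowest of all 12. The highest value belonged to the parent library that stands apart. In bulk RNA a change in the make-up of the culture and a change in RNA per cell cannot be told apart.

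Shares of exonic reads were smaller and moved less. They were 0.273, 0.257 and 0.258% in parent cells labelled DMSO and 0.312, 0.283 and 0.279% in those labelled prexasertib. Knockout cells had 0.314, 0.318 and 0.308% with the DMSO label and 0.336, 0.332 and 0.344% with the prexasertib label. Again the treatment groups did not overlap within a line, and 5 of the 6 knockout libraries lay above all 6 parent libraries, the lowest at 0.308% being under the parent library that stands apart. The 207 long genes under 50 exonic reads gave another picture, with 0.251 to 0.254% of intronic reads in parent cells labelled DMSO, 0.219 to 0.262% in parent cells labelled prexasertib, 0.262 to 0.273% in knockout cells labelled DMSO and 0.284 to 0.295% in knockout cells labelled prexasertib. The parent treatment groups of these little-transcribed genes overlapped. Counting only reads outside other genes, these 207 genes held 0.167 to 0.174% of such reads in parent cells labelled DMSO and 0.134 to 0.138% in parent cells labelled prexasertib, so that the parent groups then separated with the DMSO label higher. Knockout cells went the other way on this measure, from 0.132 to 0.134% with the DMSO label to 0.139 to 0.142% with the prexasertib label, again without overlap.

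**Figure D1:**
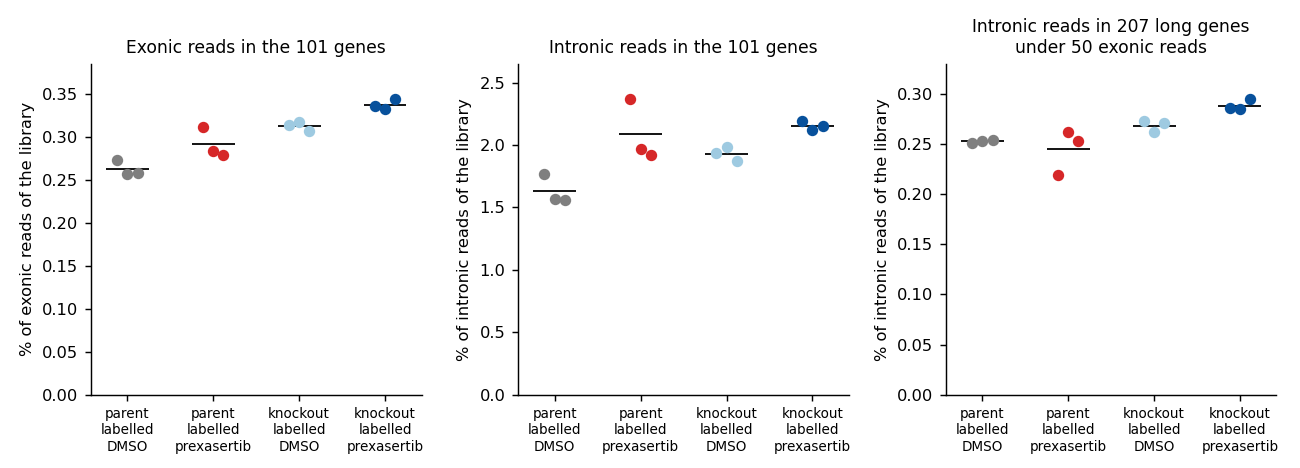
Share of each library's exonic reads (left) and intronic reads (middle) that fell in the 101 genes, and share of intronic reads in 207 long genes with under 50 exonic reads in every library (right), in percent, with 1 point per library, a bar at the mean of 3 and axes from 0. In the middle panel the parent libraries rise from 1.56 to 1.77% with the DMSO label to 1.92 to 2.37% with the prexasertib label.

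Intronic reads were compared gene by gene with edgeR's quasi-likelihood test over 19852 features, with p-values adjusted over all of them by Benjamini and Hochberg and calls at an adjusted p of at most 0.05. In parent cells 60 of the 101 long genes were called higher with the prexasertib label and 8 lower. Together 68 members were called, or 67.3%. Over all features tested 30.8% were called in either direction and 15.6% lower. The members' median log2 fold change was 0.31, against -0.01 over all features, and 81 of the 101 were above 0. Scaling bears on the size of the change: TMM factors place the middle of all intronic counts at no change, and scaled to exonic library totals instead the median of all features was 0.20 and that of the members 0.53, with 74 called higher, the 60 among them. The share of all features called higher under that scaling is not given, so the 74 cannot be set against it. Without the library that stands apart 56 were called higher, 55 of them among the 60, and the members' median was 0.22.

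With all 12 libraries in the fit, the share called rose step by step with gene length. In parent cells 7.40% of expressed autosomal genes under 20 kb were called higher in intronic reads, then 19.3, 30.6, 41.2 and 49.7% in the classes from 20 to 500 kb and 59.4% of the 101. Median log2 fold changes followed: -0.06, 0.04, 0.10, 0.18, 0.25 and 0.31. The class from 200 to 500 kb was already close to the 101. Without the library that stands apart the median of the 101 was 0.22, and values of the other classes without it are not given. Longer genes also held more of their reads in introns, and read depth was not matched between the classes. Among the 101 themselves length and intronic change had a Spearman's rho of 0.04 in parent and 0.20 in knockout cells across genes, which share libraries and depth. In knockout cells the medians ran -0.01, 0.01, 0.02, 0.01, 0.06 and 0.15, so that only the classes from 200 kb on left 0 by more than 0.05.

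Exonic reads showed a shallower slope. Their medians in parent cells were 0.04, -0.01, 0.01, 0.06, 0.11 and 0.12 from the shortest class to the longest. Knockout cells gave -0.02, -0.02, 0.02, 0.06, 0.11 and 0.12. In exonic reads the 2 lines reached the same median among the 101 genes, while in intronic reads the parent median was the larger. Without the parent library that stands apart the exonic median was 0.03 in parent and 0.12 in knockout cells.

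**Figure D2:**
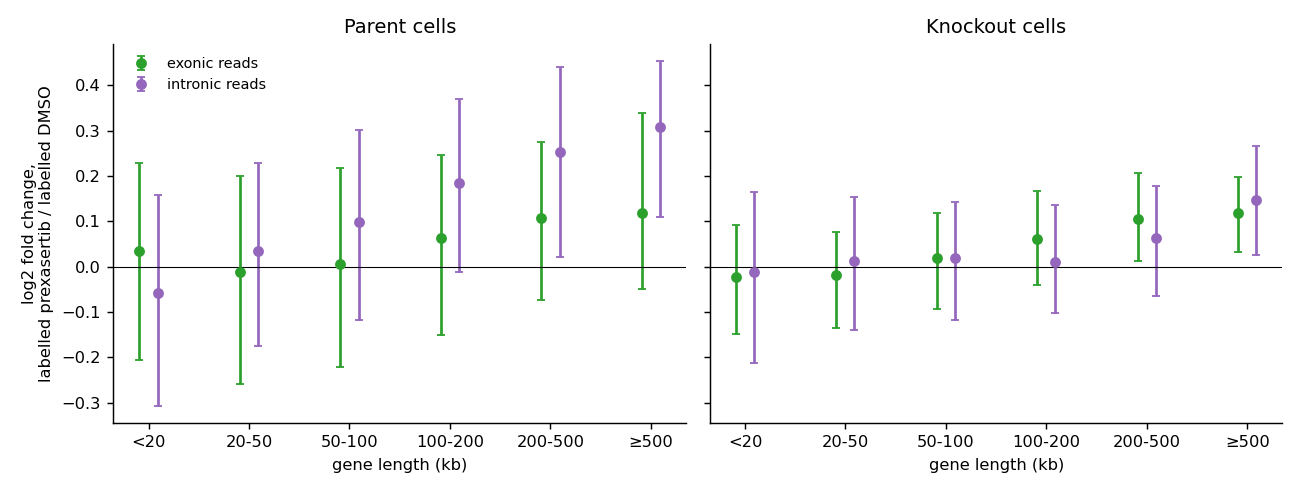
Median log2 fold change, labelled prexasertib over labelled DMSO, of exonic (green) and intronic (purple) reads by gene length in parent and knockout cells, over autosomal genes with at least 50 exonic reads in every library; bars run from the first to the third quartile of the genes. In parent cells the intronic median, with all 12 libraries in the fit, climbs from -0.06 under 20 kb to 0.31 at 500 kb and over.

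Among the intronic rises of parent cells, the named rule took DAB1, TBC1D5, AFF3, IQCJ-SCHIP1 and HIVEP3. TBC1D5 (chr3:17198654-18486309) encodes a GTPase-activating protein for Rab proteins that acts on endosomes. Its intronic CPM, which is relative to all intronic reads, was 413, 354 and 363 with the DMSO label and 720.4, 628 and 614 with the prexasertib label in parent cells. All 3 libraries labelled prexasertib lay above those labelled DMSO, with a log2 fold change of 0.80 ± 0.08 (SE), adjusted p = 4.6e-08. DAB1, the intracellular adaptor of reelin signaling, had intronic values of 155, 129 and 135 (DMSO label) and 307, 208 and 214 (prexasertib label) CPM. These groups did not overlap either, and replicate 1 was far above the other 2 libraries labelled prexasertib, so that the log2 fold change of 0.80 ± 0.12 (SE), adjusted p = 4.0e-05 became 0.60 without it.

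AFF3 (chr2:100162323-100759201) encodes a nuclear protein of the AFF family. It stood at 186, 165 and 174 intronic CPM in parent cells labelled DMSO and 363, 278 and 255 in those labelled prexasertib. The groups were apart, again with replicate 1 highest, and the log2 fold change was 0.77 ± 0.09 (SE), adjusted p = 2.1e-06, or 0.61 without that library. HIVEP3, a zinc finger transcription factor, went from 57.8, 56.6 and 49.4 to 113, 79.2 and 76.3 intronic CPM, a log2 fold change of 0.71 ± 0.11 (SE), adjusted p = 4.8e-05. Replicate 1 was highest here too, and the change without it is not given. IQCJ-SCHIP1, a gene model that spans 2 neighbouring genes, rose at low level from 8.64 ± 1.64 to 14.6 ± 0.547 intronic CPM (mean ± SD, n = 3 libraries). In both of these genes the groups did not overlap. RUNX1, the hematopoietic transcription factor and one of the most abundant members in introns, was chosen after its values were seen: it had 992, 902 and 884 (DMSO label) and 1805, 1109.5 and 1108 (prexasertib label) intronic CPM, with replicate 1 of the prexasertib label standing alone.

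Fewer members changed in exonic reads. Of the 101, 32 were called higher and 11 lower in parent cells with the prexasertib label, where 18.2% of the 23045 features tested were called higher and 18.2% lower. The median was 0.12 against 0.04 over all features. This count rests on a few libraries: it was 21 without replicate 1 and 19 without replicate 2 of the parent cells labelled DMSO, and 20 without replicate 1 of the knockout cells labelled DMSO, which enter through the shared estimate of spread. It was 24 without the library that stands apart, 23 of them among the 32, and the members' median was then 0.03.

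Of the 32, 26 were also called higher in intronic reads, an overlap for which no share over all features is given. IQCJ-SCHIP1 had the largest exonic rise among the better expressed genes (mean log2 CPM 1 or more), from 2.42, 2.38 and 1.96 to 3.63, 4.29 and 4.09 CPM, a log2 fold change of 0.82 ± 0.12 (SE), adjusted p = 6.4e-06. MYT1L, a neural zinc finger transcription factor, was at 5.65, 5.21 and 4.89 (DMSO label) and 9.97, 7.73 and 7.02 (prexasertib label) CPM. PTPRD, a receptor protein tyrosine phosphatase and the longest member, was at 33.8, 29.5 and 30.5 (DMSO label) and 55.4, 41.5 and 42.0 (prexasertib label) CPM. In all of these the treatment groups did not overlap, and log2 fold changes were 0.65 ± 0.11 (SE), adjusted p = 4.3e-05 for MYT1L and 0.57 ± 0.09 (SE), adjusted p = 4.2e-05 for PTPRD. In MYT1L and PTPRD replicate 1 of the prexasertib label was the highest library, and the changes without it are not given. DNM3, a membrane-cutting GTPase of the dynamin family, was called in exons (0.61 ± 0.14 (SE), adjusted p = 0.00081) and not in introns (0.11, adjusted p = 0.479). HIVEP3 was far higher in 1 library than in the others of its group: its exonic CPM was 5.17, 5.73 and 5.29 with the DMSO label and 12.7, 6.69 and 6.45 with the prexasertib label, and its log2 fold change of 0.68 ± 0.23 (SE), adjusted p = 0.0428 became 0.26 without replicate 1. That call was also lost when any 1 of the other libraries of the parent DMSO or of the knockout groups was left out, with values from 0.61 to 0.69.

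**Figure D3:**
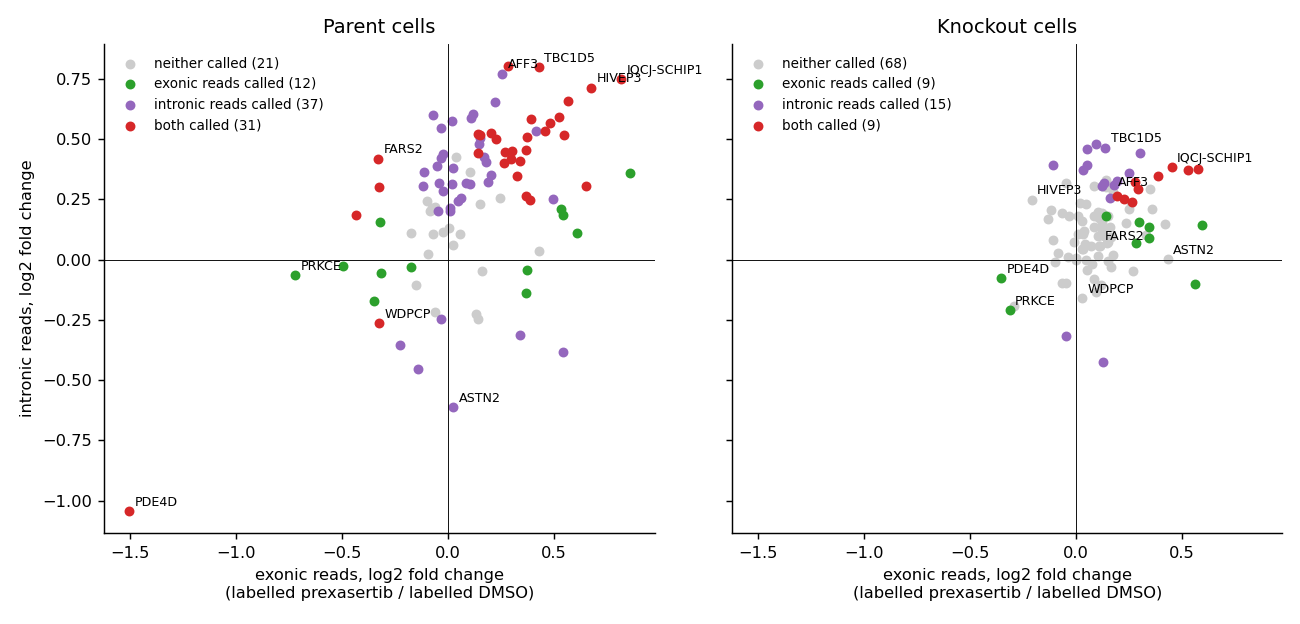
Log2 fold change of exonic reads (x axis) against that of intronic reads (y axis), labelled prexasertib over labelled DMSO, for each of the 101 genes in parent and knockout cells, coloured by which reads were called. In parent cells 37 genes were called in intronic reads alone, 12 in exonic reads alone and 31 in both, and PDE4D lies alone at -1.50 and -1.04.

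In parent cells 11 members had lower exonic reads, among them PDE4D, which had the largest exonic change between treatments of the 101. PDE4D (chr5:58264865-59817947) encodes a phosphodiesterase that breaks down cyclic AMP. Its exonic CPM was 85.9, 82.0 and 82.3 in parent cells labelled DMSO, 28.1, 32.0 and 28.2 in parent cells labelled prexasertib, 74.0, 77.2 and 77.2 in knockout cells labelled DMSO and 59.0, 59.8 and 60.3 in knockout cells labelled prexasertib. The parent libraries labelled prexasertib were the lowest of all 12, and the knockout libraries labelled prexasertib were below those labelled DMSO without overlap. The log2 fold change was -1.50 ± 0.06 (SE), adjusted p = 2.6e-17 in parent and -0.35 ± 0.05 (SE), adjusted p = 3.9e-05 in knockout cells. Intronic reads fell with them in parent cells, from 54.0, 48.3 and 49.979 to 25.7, 25.4 and 22.6 CPM (-1.04 ± 0.09 (SE), adjusted p = 6.5e-09). In knockout cells intronic values were 53.7, 56.5 and 54.2 (DMSO label) and 56.0, 46.6 and 53.2 (prexasertib label) CPM, overlapping groups with a log2 fold change of -0.08 and an adjusted p of 0.63. The difference of the responses, parent less knockout, was -1.15 ± 0.08 (SE), adjusted p = 3.2e-11 in exons and -0.97 ± 0.12 (SE), adjusted p = 2.0e-05 in introns. PDE4D was the only member whose change between treatments passed 2-fold in either layer and line.

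PRKCE (chr2:45878484-46415129) encodes the epsilon isoform of protein kinase C. Its exonic CPM was 65.7, 64.5 and 66.4 (DMSO label) and 33.4, 43.2 and 42.8 (prexasertib label) in parent cells, and 84.3, 83.4 and 85.9 (DMSO label) and 66.3, 67.0 and 71.0 (prexasertib label) in knockout cells. Within each line the groups were apart, and log2 fold changes were -0.72 ± 0.07 (SE), adjusted p = 1.3e-08 in parent and -0.31 ± 0.07 (SE), adjusted p = 0.0029 in knockout cells, with a difference of -0.41 (adjusted p = 0.0045). Introns of PRKCE did not follow: they were at 87.1, 74.1 and 72.4 (DMSO label) and 96.2, 63.7 and 62.9 (prexasertib label) CPM in parent cells, where the groups overlapped and the log2 fold change was -0.07 (adjusted p = 0.76). RASGEF1B, an exchange factor for small GTPases, was at 3.72, 3.73 and 3.81 exonic CPM in parent cells labelled DMSO and 2.60, 2.71 and 2.67 in those labelled prexasertib (-0.50 ± 0.13 (SE), adjusted p = 0.0043). In knockout cells it was at 2.24, 1.83 and 1.88 (DMSO label) and 2.75, 2.40 and 2.53 (prexasertib label) CPM, where the groups were apart in the other direction and the test did not pass (0.36, adjusted p = 0.0914). ANK2, which encodes ankyrin B, changed by -0.35 ± 0.10 (SE), adjusted p = 0.0066 in exons, and by -0.27, no longer called, without replicate 2 of the prexasertib label.

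**Figure D4:**
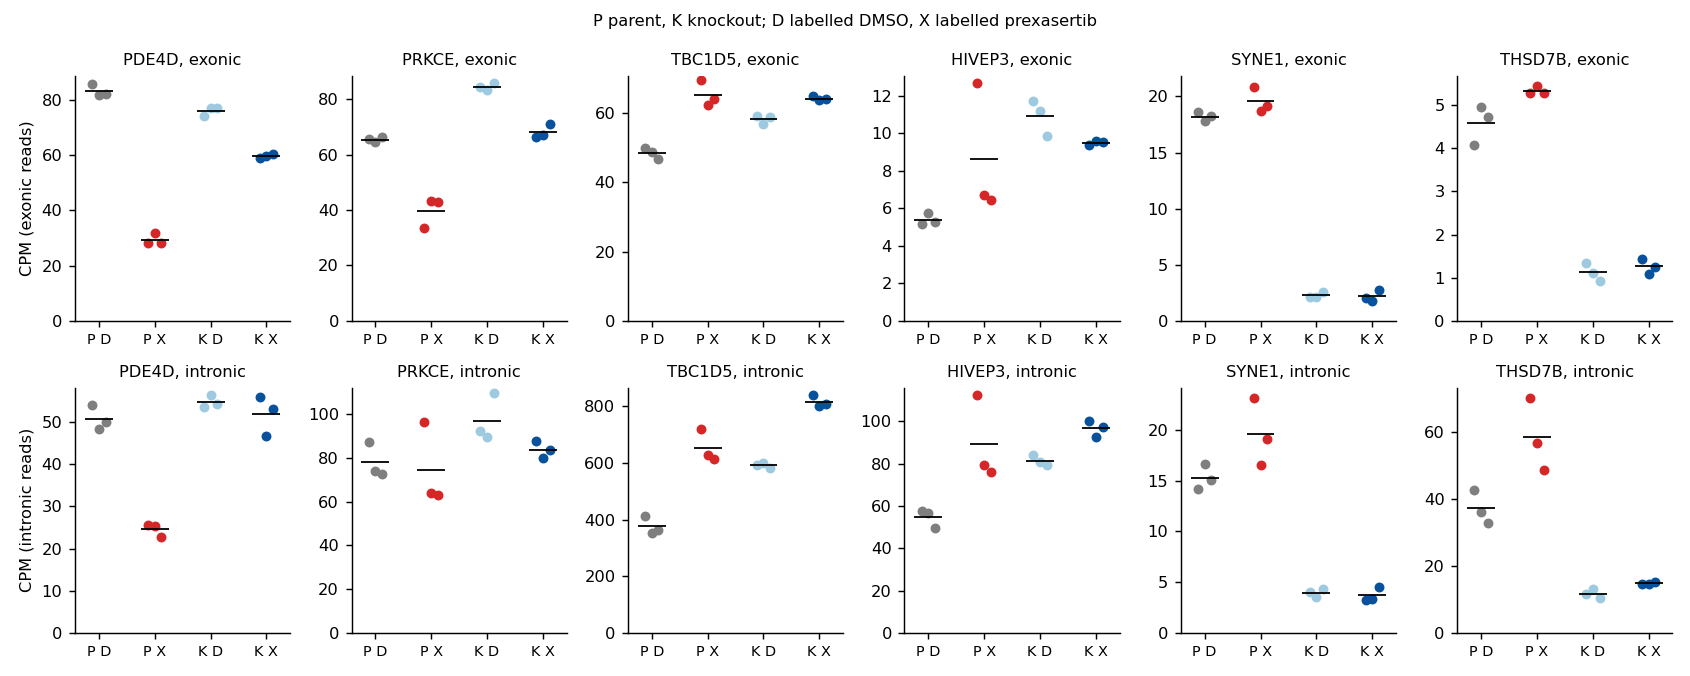
CPM of 6 members in every library, exonic reads above and intronic reads below, with 1 point per library, a bar at the mean of 3 and axes from 0; P and K are parent and knockout, D and X the DMSO and the prexasertib label. In parent cells PDE4D is lower with the prexasertib label in both rows and PRKCE in the exonic row, and SYNE1 and THSD7B are low in both knockout groups.

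Exons and introns moved apart in 3 members of parent cells, which were called lower in exonic and higher in intronic reads: AVL9, CASC15 and FARS2. How many of all features did so is not given. FARS2 (chr6:5261277-5771813) encodes the mitochondrial phenylalanyl-tRNA synthetase. Its exonic CPM went from 18.9, 18.8 and 20.6 to 13.7, 15.5 and 17.2 while its intronic CPM went from 116, 102 and 102 to 172, 125 and 131. Neither pair of groups overlapped. CASC15 (chr6:21665003-22214734), a long noncoding RNA gene, had 48.0, 42.1 and 43.9 (DMSO label) and 37.9, 35.7 and 33.2 (prexasertib label) exonic CPM, and 497, 456 and 471 (DMSO label) and 681, 554 and 523 (prexasertib label) intronic CPM. Its groups were apart in both layers as well. In AVL9 the exonic change was -0.43 ± 0.05 (SE), adjusted p = 2.9e-07 and the intronic change 0.19 ± 0.07 (SE), adjusted p = 0.0492, and most exonic reads of AVL9 lie in ground shared with other genes. None of the 3 was called in either layer in knockout cells.

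A ratio of intronic to exonic reads per gene, centred on the library totals and tested with limma over 17090 features, gave 18 members higher and 3 lower in parent cells, against 9.32% and 5.0% of all features. The members' median change was 0.19 on the log2 scale. FARS2 changed by 0.74 ± 0.17 (SE), adjusted p = 0.0204, PTPRN2, a receptor phosphatase of secretory vesicles, by 0.63 ± 0.14 (SE), adjusted p = 0.0153, and CASC15 by 0.62 ± 0.09 (SE), adjusted p = 0.0029. ASTN2, DNM3 and SUMF1 were called lower, at -0.61, -0.52 and -0.52. Calls of FARS2 ended without replicate 2 (0.73) or 3 (0.67) and that of PTPRN2 without replicate 3 (0.58) of the parent cells labelled DMSO. The count of higher ratios was 7 without replicate 2 and 7 without replicate 3 of the parent cells labelled DMSO. In knockout cells 1 ratio was called higher, that of ALDH1A2 (0.38 ± 0.07 (SE), adjusted p = 0.0347), and none lower, against 0.93% and 0.954% of features, with 15 members under an unadjusted p of 0.05 by limma. Leaving out replicate 1 of the parent cells labelled prexasertib raised that count to 4, and leaving out any 1 library of the knockout groups, or replicate 2 or 3 of the parent cells labelled DMSO, brought it to 0.

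Intronic reads were lower in 8 members of parent cells. Besides PDE4D they were led by ASTN2, a neuronal adhesion protein, MCTP1, a calcium-binding membrane protein, and EYS, a photoreceptor matrix protein. ASTN2 was at 112, 119.9 and 116 (DMSO label) and 76.7, 76.1 and 74.0 (prexasertib label) intronic CPM in parent cells and at 69.1, 68.0 and 72.2 (DMSO label) and 69.4, 70.8 and 69.5 (prexasertib label) in knockout cells, so that the parent cells labelled DMSO stood above the 3 other groups. The log2 fold change of -0.61 ± 0.07 (SE), adjusted p = 2.5e-07 was -0.07, and not called, when reads shared with other genes were left out. The same restriction took the noncoding gene AC007319.1 from -0.36 to -0.07. EYS was at 27.3, 24.2 and 27.993 (DMSO label) and 23.4, 19.4 and 17.9 (prexasertib label) intronic CPM, groups that did not overlap (-0.38 ± 0.11 (SE), adjusted p = 0.0105), and lost its call without replicate 3 of the prexasertib label (-0.30) or replicate 3 of the DMSO label (-0.32). MCTP1 was at 161, 141 and 144 (DMSO label) and 131, 99.1 and 95.2 (prexasertib label) CPM in parent cells, apart, with -0.46 ± 0.09 (SE), adjusted p = 0.00063, and was also called lower in knockout cells (-0.32 ± 0.09 (SE), adjusted p = 0.0295), where leaving out any 1 of the 6 knockout libraries ended the call.

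Grouped by role, every list held intronic rises in parent cells, where 59.4% of all 101 members were called higher and 7.92% lower. In exons 31.7% of the 101 were called higher and 10.9% lower. Of all features tested, 30.8% were called in introns in either direction, and in exons 18.2% were called higher and 18.2% lower. Of 9 DNA repair, cell cycle and metabolism genes 8 were called higher in introns and none lower, with a median of 0.31. RAD51B, a gene of homologous recombination, was at 287, 261 and 265 (DMSO label) and 383, 334 and 328 (prexasertib label) intronic CPM and DPYD, the first enzyme of pyrimidine breakdown, changed by 0.31 ± 0.08 (SE), adjusted p = 0.0036. ATP8A2, a lipid flippase, was the exception, called in exons (0.53 ± 0.06 (SE), adjusted p = 1.7e-07) and not in introns (0.21, adjusted p = 0.343). In exons 3 of the 9 rose and FARS2 fell. Of 9 transcription and chromatin regulators 6 were higher in introns and none lower, with a median of 0.48, among them SMYD3, a lysine methyltransferase (0.57 ± 0.08 (SE), adjusted p = 9.0e-06), FOXP1 and RUNX1, and 2 were higher in exons.

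Of 23 GTPase regulators, cytoskeleton and trafficking genes, 13 were higher and 1 lower in introns (median 0.40), and 11 higher and 1 lower in exons (median 0.20). They included PARD3, a scaffold of cell polarity (0.45 ± 0.07 (SE), adjusted p = 2.4e-05 in introns and 0.30 in exons), and TRAPPC9, a subunit of a vesicle tethering complex (0.48 ± 0.08 (SE), adjusted p = 3.6e-05 in exons). Of 11 kinase, phosphatase and second messenger genes, 7 were higher and PDE4D lower in introns (median 0.39), and 3 higher and 2 lower in exons, where the median was -0.05. Of 10 adhesion, synaptic, receptor and channel genes, 6 were higher and 2 lower in introns (median 0.23), among them the potassium channel KCNQ5 (0.60 ± 0.07 (SE), adjusted p = 1.4e-06) and the adhesion molecule NEGR1 (0.58 ± 0.08 (SE), adjusted p = 8.9e-06), and 3 were higher in exons. These lists were written with earlier results known, some share members, and 39 members are on none.

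On a list of 41 genes that general knowledge places at common fragile sites, 16 were members. In parent cells 11 of the 16 were called higher in introns and 1, PDE4D, lower, with a median of 0.31, the same as for all 101. Of the 101, 59.4% were higher and 7.92% lower, and 30.8% of all features were called in either direction. In exons 4 were higher, DAB1, LPP, LRBA and NBEA, and PDE4D lower. There 31.7% of the 101 were higher and 10.9% lower, against 18.2% and 18.2% of all features. The exonic call of DAB1 ended without the library that stands apart (0.18), that of LPP without replicate 2 of the DMSO label (0.47) and that of NBEA without any 1 of 7 libraries (0.47 to 0.58). WWOX (chr16:78133310-79246564), an oxidoreductase gene that spans a fragile site on chromosome 16, was at 206, 197 and 189 (DMSO label) and 269, 232 and 235 (prexasertib label) intronic CPM in parent cells and at 175, 187 and 181 (DMSO label) and 261, 237 and 248 (prexasertib label) in knockout cells. In both lines the groups were apart, with log2 fold changes of 0.31 ± 0.07 (SE), adjusted p = 0.0018 and 0.46 ± 0.07 (SE), adjusted p = 0.00013. Its exonic CPM hardly differed, at 11.995, 12.3 and 12.6 (DMSO label) and 12.1, 13.4 and 14.228 (prexasertib label) in parent cells, where the groups overlapped (0.11, adjusted p = 0.309).

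IMMP2L, a mitochondrial inner membrane peptidase gene and another fragile site, was at 293, 243 and 251 (DMSO label) and 312, 297 and 296 (prexasertib label) intronic CPM in parent cells and at 291, 281 and 259.8 (DMSO label) and 374, 360.2 and 359 (prexasertib label) in knockout cells. The groups were apart in both lines, with 0.20 ± 0.07 (SE), adjusted p = 0.042 in parent cells, a call that ended without replicate 2 (0.16) or replicate 3 (0.19) of the DMSO label and without 6 other libraries in turn, and 0.39 ± 0.07 (SE), adjusted p = 0.00093 in knockout cells. In knockout cells 3 of the 16 were higher in introns, WWOX, IMMP2L and RAD51B, and none lower. Of all 101 members 21.8% were higher and 1.98% lower there, against 5.83% and 6.15% of all features. The other members on the list were DPYD (0.31 in introns of parent cells), EXOC4, an exocyst subunit (0.20), FOXP1 (0.38), GPHN, the gephyrin gene (0.40), PTPRN2 (0.60), LPP (0.52) and LRBA (0.40), all called, and INPP4B (0.26), NBEA (0.19), RORA (0.21) and VPS13B (0.23), not called. FHIT and LSAMP, also on the list, were under the floor on reads.

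In knockout cells fewer long genes were called, as was the case over all features. Intronic reads of 22 members were higher with the prexasertib label and of 2 lower, against 5.83% and 6.15% of all features, with a median of 0.15. Exonic reads of 16 were higher and of 2 lower, against 6.11% and 6.83%, with a median of 0.12 against 0.00 over all features. Both counts depended on the libraries in the fit: without replicate 1 of the parent cells labelled prexasertib, which is not in this contrast but enters the estimate of spread, 47 members were higher in introns and 31 in exons. Without replicate 1 or 3 of the knockout cells labelled prexasertib exonic counts were 10 and 9, and they were 10 without each of the 3 knockout libraries labelled DMSO. Scaled to exonic library totals, 5 members were higher and 0 lower in introns, with a median of 0.14. Intronic counts were 14 without replicate 1 of the prexasertib label, and 13 and 11 without replicate 1 and replicate 3 of the DMSO label. Shares over all features are not given for these other fits, so their counts cannot be set against 5.83% or 6.11%.

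ALDH1A2 (chr15:58245622-58790065) led the intronic rises of knockout cells. Its intronic CPM was 606, 613 and 593 with the DMSO label and 847, 837 and 841 with the prexasertib label, against 391, 360.2 and 364 (DMSO label) and 544, 529 and 529 (prexasertib label) in parent cells. All 4 groups were apart, the log2 fold change was 0.48 ± 0.06 (SE), adjusted p = 1.6e-05 in knockout and 0.52 ± 0.06 (SE), adjusted p = 1.6e-06 in parent cells, and exonic changes were smaller, at 0.09 (adjusted p = 0.288) and 0.14 (adjusted p = 0.0375). TBC1D5 had 593, 601 and 581 (DMSO label) and 841, 799.6 and 808 (prexasertib label) intronic CPM in knockout cells (0.46 ± 0.08 (SE), adjusted p = 0.0002), groups that did not overlap. CACNA1C, the pore of an L-type calcium channel, changed by 0.44 ± 0.08 (SE), adjusted p = 0.00038 in introns.

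Of the exonic rises in knockout cells, PTPRD went from 27.8, 29.9 and 29.4 to 42.1, 41.6 and 41.9 CPM (0.53 ± 0.09 (SE), adjusted p = 0.00039), with a difference between the responses of 0.04 ± 0.12 (SE), adjusted p = 0.887. NEGR1 went from 5.68, 5.88 and 4.77 to 8.10, 7.27 and 9.11 CPM (0.58 ± 0.13 (SE), adjusted p = 0.0026). In both genes the groups were apart. KAZN, which encodes a protein of cell junctions, changed by 0.60 ± 0.19 (SE), adjusted p = 0.035 and lost its call without replicate 2 or 3 of the prexasertib label (0.61 and 0.44) or replicate 1 or 2 of the DMSO label (0.57 and 0.51). KCNQ5 (0.39) and IQCJ-SCHIP1 (0.45) were called too, the last not without replicate 3 of the DMSO label (0.40). BCAS3 was called lower in introns (-0.43 ± 0.10 (SE), adjusted p = 0.0065). Of the members called higher in knockout cells, 11 of 16 in exons and 21 of 22 in introns were also called higher in parent cells. The same overlap over all features is not given, so these counts do not set the long genes apart.

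Whether the lines differed in response was tested directly, as the parent response less the knockout response. In exons 4 members were higher and 12 lower, against 7.32% and 9.53% of all features. In introns 4 were higher and 3 lower, against 4.02% and 5.82%. The members' median difference was -0.02 in exons and 0.15 in introns, where all features had -0.02. For most long genes, then, a difference between the lines was not detectable at this depth, also among those called in parent cells alone. Besides PDE4D, TBC1D5 and CDH4 differed in both layers. TBC1D5 rose more in parent cells by 0.29 ± 0.07 (SE), adjusted p = 0.007 in exons and 0.33 in introns, where the adjusted p of 0.04998 lay at the threshold and leaving out any 1 of 8 libraries ended the call (0.31 to 0.36). Without replicate 1 of the knockout cells labelled DMSO the exonic difference was 0.24 and not called. Its exonic CPM was 49.978, 48.7 and 46.7 (DMSO label) and 69.6, 62.2 and 64.0 (prexasertib label) in parent cells, apart, and 59.2, 56.8 and 58.8 (DMSO label) and 64.8, 63.7 and 64.1 (prexasertib label) in knockout cells, apart by less. CDH4, the R-cadherin gene, had 46.9, 53.1 and 49.3 (DMSO label) and 77.8, 61.5 and 66.0 (prexasertib label) exonic CPM in parent cells and 78.7, 81.2 and 77.5 (DMSO label) and 92.2, 89.4 and 81.5 (prexasertib label) in knockout cells. Its exonic difference of 0.31 ± 0.10 (SE), adjusted p = 0.0345 was 0.18 and not called without the library that stands apart, and 8 other libraries also ended the call when left out. In introns it was 0.47 ± 0.14 (SE), adjusted p = 0.043, lost without any 1 of the libraries of the parent DMSO and the knockout groups.

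TRAPPC9 had the largest positive exonic difference, 0.59 ± 0.11 (SE), adjusted p = 0.00061. Its exonic CPM was 20.1, 21.8 and 20.8 (DMSO label) and 34.0, 26.4 and 27.1 (prexasertib label) in parent cells and 24.2, 27.4 and 24.4 (DMSO label) and 23.5, 24.7 and 22.2 (prexasertib label) in knockout cells, where the groups overlapped. The highest value, 34.0, is that of the library that stands apart, and the difference without it is not given. Lower in the parent response were RASGEF1B (-0.86 ± 0.19 (SE), adjusted p = 0.0023), AVL9 (-0.47 ± 0.07 (SE), adjusted p = 5.2e-05) and FARS2 (-0.44 ± 0.10 (SE), adjusted p = 0.0037), none of them called between treatments in knockout cells. The count of lower exonic differences was 22 without the library that stands apart, the 12 among them, and the count of higher ones was 1 without replicate 1 of the knockout cells labelled DMSO. In introns AFF3 (0.49 ± 0.13 (SE), adjusted p = 0.0219) and KAZN (0.45 ± 0.13 (SE), adjusted p = 0.0279) were higher in the parent response, calls that ended without any 1 of 3 libraries for AFF3 (0.46 to 0.48) and of 7 for KAZN (0.42 to 0.46), and EYS (-0.69 ± 0.16 (SE), adjusted p = 0.0077) and ASTN2 (-0.62, or -0.19 and not called in reads outside other genes) lower. Intronic differences were called higher in 0 to 15 members when 1 library was left out. The ratio of introns to exons differed in 2 members, AVL9 and CASC15, both higher in the parent response, against 2.94% higher and 1.36% lower over all features, and neither was called when any 1 parent DMSO library or knockout library was left out.

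With both treatment labels the lines differed from each other in many long genes, as in many features of any length. With the DMSO label 33 of the 101 (32.7%) were higher in knockout than in parent cells in exonic reads and 17 (16.8%) lower, against 19.6% and 20.4% of all features. In intronic reads 23 were higher and 9 lower, or 31.7% of the 101 in either direction. Of all features 30.3% were called in either direction, a similar share, and 16.0% lower. With the prexasertib label 29 were higher and 12 lower in exons, against 14.5% and 13.5%, and 20 higher and 19 lower in introns, against 9.62% and 9.16%. Leaving out replicate 1 of the parent cells labelled prexasertib gave 26 lower in exons, and 38 higher and 16 lower in introns, with the DMSO label, and 32 higher in introns with the prexasertib label, where the members' median went from -0.06 to 0.04. Without replicate 2 of the knockout cells labelled prexasertib 10 were lower in introns with that label. Ratios of introns to exons were higher in 10 and lower in 3 members with the DMSO label, against 9.32% and 6.06%, and higher in 2 and lower in 5 with the prexasertib label, against 2.15% and 2.43%. Leaving out 1 library gave 3 to 14 higher and 0 to 5 lower with the DMSO label, and 1 to 2 higher and 0 to 3 lower with the prexasertib label. The 2 comparisons of lines share no libraries, and 21 members were higher and 8 lower in exons in both. No such overlap over all features is given, nor are shares over all features for the fits that leave out a library.

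SYNE1 (chr6:152442819-152958936) encodes nesprin 1, which ties the nucleus to the cytoskeleton, and showed the widest gap of all members. Its exonic CPM was 18.6, 17.8 and 18.2 in parent cells labelled DMSO and 2.13, 2.15 and 2.55 in knockout cells labelled DMSO. With the prexasertib label it was 20.9, 18.7 and 19.2 CPM in parent and 2.06, 1.74 and 2.71 CPM in knockout cells. All parent libraries were several times above all knockout libraries, with log2 fold changes of -3.01 ± 0.11 (SE), adjusted p = 4.6e-17 and -3.18 ± 0.12 (SE), adjusted p = 4.4e-17. Introns were lower as well, with -1.95 and -2.41. THSD7B (chr2:137523115-138435287), a thrombospondin repeat gene, was at 4.06, 4.96 and 4.74 exonic CPM in parent and 1.35, 1.11 and 0.933 in knockout cells labelled DMSO, again without overlap. Its log2 fold changes were -2.00 ± 0.15 (SE), adjusted p = 5.4e-11 and, with the prexasertib label, -2.08.

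Higher in the knockout line were CPNE4, a copine that binds membranes in the presence of calcium, at 3.16, 3.48 and 3.16 against 7.49, 7.44 and 6.78 exonic CPM with the DMSO label, and SPAG16, a gene of the sperm axoneme, at 8.71, 8.80 and 9.29 against 16.3, 16.5 and 14.4. Neither pair overlapped. Their log2 fold changes were 1.15 ± 0.11 (SE), adjusted p = 5.5e-09 and 0.82 ± 0.09 (SE), adjusted p = 1.6e-08, and with the prexasertib label 1.24 and 0.85. IQCJ-SCHIP1 differed by 1.29 ± 0.12 (SE), adjusted p = 2.0e-09 with the DMSO label. HIVEP3 differed with the DMSO label (1.02 ± 0.23 (SE), adjusted p = 0.0046) and was not called with the prexasertib label (0.14, adjusted p = 0.713), while PDE4D was the reverse, at -0.13 (adjusted p = 0.0507) and 1.02 ± 0.06 (SE), adjusted p = 1.6e-13. MAST4, a microtubule-associated kinase, was lower in the knockout line with both labels (-0.60 and -0.48). TRAPPC9 was called higher with the DMSO label (0.28) and lower with the prexasertib label (-0.31).

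**Figure D5:**
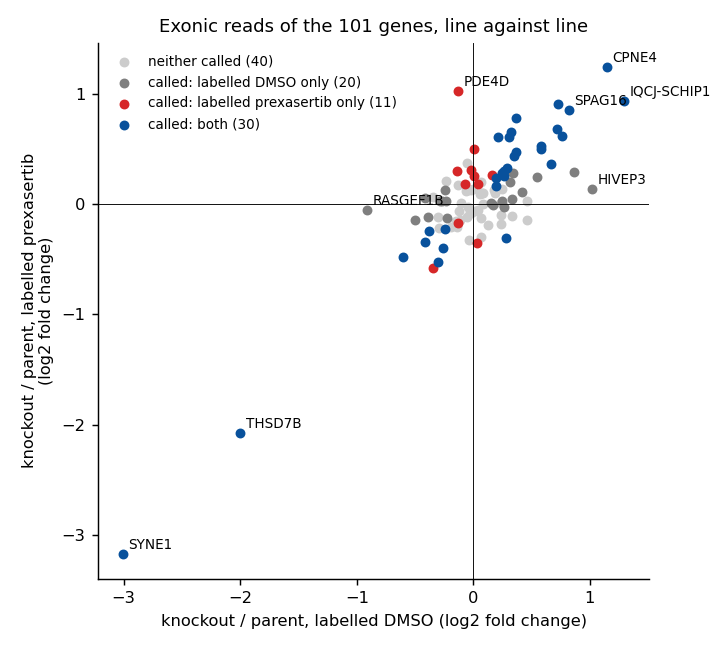
Log2 fold change of exonic reads, knockout over parent, with the DMSO label (x axis) and the prexasertib label (y axis) for each of the 101 genes, coloured by where the difference was called. SYNE1 (-3.01 and -3.18) and THSD7B (-2.00 and -2.08) are far below 0 on both axes, and PDE4D and HIVEP3 are away from 0 on 1 axis alone.

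Genes whose products promote, restrain or end the movement of polymerase along genes were tested as a further list. The list mixes opposing roles, so counts over it give no direction of elongation. Of 48 transcription elongation and topoisomerase genes, 44 were measured, and in parent cells 6 were higher and 21 lower in exonic reads with the prexasertib label, with a median of -0.15, where 18.2% of all features were called in each direction. In knockout cells 1 was higher and 8 lower, against 6.11% and 6.83% of all features. The parent response was lower than the knockout response in 12 and higher in 2, against 9.53% and 7.32%. The smallest p-values belonged to MEPCE and HEXIM1, which hold the elongation kinase P-TEFb in its inactive complex, at -1.41 ± 0.07 (SE, adjusted p = 9.8e-15) and -1.17 ± 0.06 (SE, adjusted p = 1.1e-14) in parent cells and at -0.69 and -0.77 in knockout cells. SUPT16H, a subunit of the histone chaperone FACT, rose by 0.61 ± 0.05 (SE, adjusted p = 1.6e-09) in parent cells, and NELFB, of the negative elongation factor, by 0.39 ± 0.05 (SE, adjusted p = 2.8e-06). In knockout cells NELFB was called lower, at -0.20 (adjusted p = 0.015), and SUPT16H was not called, at 0.11 (adjusted p = 0.225). In knockout cells XRN2, the exonuclease of transcription termination, was the 1 gene called higher, at 0.16 ± 0.05 (SE, adjusted p = 0.0313). Whether any of these changes bears on the long genes was not tested.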

How the data were processed

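Total RNA of CCRF-CEM cells (RNA integrity number above 8.0) was, per the labels' protocols, pooled and read on a HiSeq4000 in 1 run of paired ends. The submitters' processing notes name hg19 and the tools STAR 2.5.4a, Picard 2.9.2, Trimmomatic 0.39 and Trim Galore 0.6.2. The counter, annotation, strand setting and treatment of duplicates are not given in the sources used here. The deposited tables of the authors hold, per the file headers, raw counts of reads over exons and introns for each gene, with gene start and length; gene positions were moved to 1-based. Of 44183 features, 36 copies on chromosome Y of the shared ends of the sex chromosomes were left out. Libraries held 47887791 to 77548202 exonic reads.

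Exonic and intronic counts of all 12 libraries were fitted separately with edgeR 4.0.16 (TMM factors, filterByExpr with a minimum count of 10, robust quasi-likelihood test) in R 4.3.3, and log2((intronic + 0.5)/(exonic + 0.5)), centred on library totals, with limma 3.58.1. P-values were adjusted by Benjamini and Hochberg over all features, with calls at 0.05. An SE is the log2 fold change divided by the root of its F. DESeq2 1.42.0, other filters and scalings, reads outside other genes, a replicate block and leaving out each library were alternatives. Shares of all features called are not given for these alternatives. Counts were simulated at the measured means, with changes placed only on genes with a mean of at least 50 reads. The exonic test of parent cells, over 22569 genes, recovered 74% of 1.5-fold and 92% of 2-fold changes. The intronic one, over 19433, recovered 66% and 92%, and the parent ratio test, over 17090, 20% and 56%. For the difference of responses recovery was 56% and 94% in exons, 40% and 86% in introns and 0% and 10% in ratios. False calls were 13 of 169, 5 of 142 and 7 of 94 in the parent tests. For the difference they were 10 of 142, 7 of 120 and 2 of 47.

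Named members are, for each comparison and kind of read, the 5 called higher and the 5 called lower with the largest log2 fold change and a mean log2 CPM of at least 1 (0 for introns), up to 3 each for ratios, the 5 longest, the members on the fragile-site list and the genes next to the thresholds; for the elongation list, the 2 smallest p-values in each direction. Others were named as examples of a list or a pattern after their values were seen. The members and lists were chosen with earlier results of these data known.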

Additional observations from a re-analysis of the deposited data

Results flagged for a closer look

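The responses of the lines, parent less knockout, differed past an adjusted p of 0.05 in 16 members in exonic reads by edgeR's quasi-likelihood test. Of the 101 members 3.96% were higher and 11.9% lower, against 7.32% and 9.53% of all features. Lower in the parent response were PDE4D (-1.15 on the log2 scale), RASGEF1B (-0.86), SYT1 (-0.49), AVL9 (-0.47), FARS2 (-0.44), PRKCE (-0.41), CASC15 (-0.4), CHRM3 (-0.37), WDPCP (-0.36), SCAPER (-0.33), STXBP5L (-0.26) and CDKAL1 (-0.25). Higher were GMDS (0.28), TBC1D5 (0.29), CDH4 (0.31) and TRAPPC9 (0.59). Of the 12 lower ones, PDE4D and PRKCE were called lower with the prexasertib label in both lines, and CHRM3, SCAPER and STXBP5L were called higher in knockout cells and not called in parent cells. In intronic reads 7 members differed: PDE4D (-0.97), EYS (-0.69) and ASTN2 (-0.62) were lower in the parent response, and TBC1D5 (0.33), KAZN (0.45), CDH4 (0.47) and AFF3 (0.49) higher. That is 3.96% of the members higher and 2.97% lower, against 4.02% and 5.82% of all features. The adjusted p of SYT1 in exons, 0.0497, and that of TBC1D5 in introns, 0.04998, lay at the threshold. Leaving out 1 library gave 0 to 15 higher intronic differences, and ASTN2 was not called in reads outside other genes. The ratio of intronic to exonic reads differed, by limma, in AVL9 (0.54) and CASC15 (0.63), where 2.94% of all features were higher and 1.36% lower. If the library names hold in place of the record labels, each of these differences changes sign.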

How the results depend on the processing

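Of 4640 values recomputed under alternatives for 267 results, 4348 kept their side of the threshold, 94 crossed into it and 198 left it. A median near 0 could change sign: that of intronic reads between the lines labelled prexasertib went from -0.06 to as high as 0.04 when 1 library was left out. With library totals of exonic reads, 2 members were lower in introns in parent cells, 5 higher and 0 lower in knockout cells, 8 higher between the lines labelled prexasertib, and 0 higher and 1 lower in the difference of responses. That difference was higher in 7 members by DESeq2, 2 with a mean CPM of at least 1 and 26 with no filter, which also gave 29 lower between the lines labelled prexasertib. Not centred, the ratio was higher in 34 and lower in 0 members in parent cells, higher in 0 in knockout cells, lower in 1 between the lines labelled DMSO, and 0 each way labelled prexasertib. With 5 reads added, 1 ratio differed between the responses. Shares of all features called are not given for these alternatives. Causes were not tested.

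Replicate numbers are in the labels, but same-numbered libraries did not deviate together: correlations ran from -0.24 to 0.18, over 0.1 in 5 of 18 pairs, against 11 of 36 pairs of other numbers. A replicate block gave 13 members with higher intronic differences of response, 1 ratio higher and 2 lower between the lines labelled prexasertib, and 0 ratios differing between the responses.

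Leaving out 1 library gave these ranges of counts, higher and then lower, for which shares over all features are not given. In exons they were 19 to 30 and 8 to 14 for parent cells, 9 to 31 and 2 to 3 for knockout cells, 26 to 36 and 15 to 26 between lines labelled DMSO, 26 to 36 and 8 to 12 labelled prexasertib, and 1 to 6 and 8 to 22 for the difference of responses. In introns they were 45 to 64 and 6 to 10, 11 to 47 and 1 to 5, 21 to 38 and 8 to 16, 16 to 32 and 10 to 27, and 0 to 15 and 3 to 5, in the same order. In ratios they were 7 to 17 and 0 to 3, 0 to 4 and 0 to 0, 3 to 14 and 0 to 5, 1 to 2 and 0 to 3, and 0 to 3 and 0 to 0.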
